A study of Mus musculus with 2 samples.

Results

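The microRNA genes of 2 related families, miR-130/miR-301 and miR-148/miR-152, were examined in the adrenal gland of newborn mice. The 7 members were Mir130a, Mir130b, Mir301 and Mir301b of the first family and Mir148a, Mir148b and Mir152 of the second, out of 2202 microRNA (miRNA) genes listed in each count table. They were selected on family membership by gene symbol, and the choice of these families was made with their levels in these libraries already known. Their levels and the ratios between libraries are therefore given as descriptions, with no test. The series holds 1 group, male B6CASTF1/J mice at 4 days of age, which are first-generation hybrids of C57BL/6J and CAST/EiJ. Both libraries came from total RNA of whole adrenal gland tissue, and the labels name no treatment and no altered allele. Replicate 1 came from the male numbered 3 and replicate 2 from the male numbered 4, and both carry 1 shared donor label.

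A miRNA is a short RNA cut from a hairpin precursor. It guides a silencing complex to messenger RNAs by pairing of its seed, bases 2 to 8, to sites that lie mostly in 3′ untranslated regions. MiRNAs with the same seed share most of their predicted targets and are counted as 1 family. Members of the miR-130/miR-301 family are studied for control of growth, vessel formation and fat cell differentiation. Human miR-130a lowers the antiangiogenic homeobox proteins GAX and HOXA5 in endothelial cells. Members of the miR-148/miR-152 family target the DNA methyltransferase DNMT1, and miR-148a lowers the LDL receptor in mouse liver. The LDL receptor takes up cholesterol, the starting material of steroid hormones made in the adrenal cortex.

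The seed-bearing mature forms from the 3′ arms are shown to make visible what the 2 families share. They are the sequences of RefSeq on GRCm38.p6, which is mm10, written 5′ to 3′ with the seed in capitals, and 6 of the 7 members had a 3′-arm form there.
miR-130a-3p: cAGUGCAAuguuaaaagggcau
miR-130b-3p: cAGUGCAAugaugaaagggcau
miR-301a-3p: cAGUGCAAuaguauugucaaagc
miR-148a-3p: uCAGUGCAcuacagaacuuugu
miR-148b-3p: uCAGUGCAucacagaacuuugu
miR-152-3p: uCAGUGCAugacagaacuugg

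These 6 forms had 2 seeds, AGUGCAA in the miR-130/miR-301 forms and CAGUGCA in the miR-148/miR-152 forms. The seeds share the 6 bases AGUGCA, placed 1 base further from the 5′ end in the second family. Their complements, UUGCACU and UGCACUG, share UGCACU. Downstream of the seed the families part: forms of different families had no common run longer than 7 bases. Within the first family miR-130b-3p differed from miR-130a-3p at 2 of 22 positions, U11A and A13G, counted from the 5′ end. The miR-301a-3p form differed from miR-130a-3p at 10 of 22 positions, all of them after the seed. In the second family miR-148b-3p differed from miR-148a-3p by C9U and U10C, and miR-152-3p from miR-148a-3p by C9U, U10G and U20G.

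Deposited counts belong to the whole hairpin, so reads of the 5′ and 3′ arms were not told apart. The hairpins of 3 members on which the results turn are shown with the 3′-arm form in capitals.
Mir301: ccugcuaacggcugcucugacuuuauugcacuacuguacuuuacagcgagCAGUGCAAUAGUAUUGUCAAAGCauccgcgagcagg
Mir130a: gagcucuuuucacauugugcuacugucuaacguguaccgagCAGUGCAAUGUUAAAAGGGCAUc
Mir148a: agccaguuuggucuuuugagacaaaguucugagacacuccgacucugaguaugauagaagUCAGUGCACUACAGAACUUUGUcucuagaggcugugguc

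Reads that aligned to more than 1 place were outside the gene counts, so the overlap of each mature form with other hairpins bears on its count. None of the 6 available 3′-arm forms occurred whole, in the sense direction, in another hairpin of the RefSeq table. Mir301b, the 5′ arms and the genome outside these hairpins were not covered, so loss of member reads is not excluded. The longest run in common was 15 of the 22 bases of miR-130a-3p, found in Mir6389. For miR-301a-3p it was 13 of 23 bases, found in Mir301b. For both miR-148 forms it was 12 of 22 bases, found in each other's hairpin. These runs are unbroken exact matches, so they can understate likeness. The forms miR-130a-3p and miR-130b-3p, for example, were identical at 20 of 22 positions with a longest shared run of 10. Matches with single differing bases were not searched for in the hairpins. Loss or exchange of reads between like hairpins, such as Mir301 and Mir301b, was therefore not tested.

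The members lie at 6 places of the mm10 genome, 4 of them within protein-coding genes on the same strand. Mir130a is at chr2:84741115-84741178 and Mir148a at chr6:51269812-51269910, both on the minus strand and outside any other annotated gene. Mir301 is at chr11:87113004-87113089 on the plus strand, in an intron of Ska2, which encodes a protein of the spindle and kinetochore complex. Mir130b at chr16:17124061-17124142 and Mir301b at chr16:17124400-17124496 lie 257 bases apart on the minus strand, in an intron of 2610318N02Rik. Mir148b at chr15:103285125-103285221 and Mir152 at chr11:96850393-96850465 lie on the plus strand in introns of Copz1 and Copz2, 2 genes for zeta subunits of the COPI vesicle coat.

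Depth differed between the libraries. Sense-strand miRNA counts numbered 3961630 in replicate 1 and 1686822 in replicate 2, so 1 count was worth 0.252 and 0.593 counts per 1000000 of that total (CPM). All intervals given are exact 95% intervals for counting error only. They treat reads as independent, and sequencing reads are not independent molecules, so the intervals can be too narrow. The libraries were treated as separate mice because the labels give 2 male numbers and number the libraries as biological replicates 1 and 2. The shared donor label leaves this less than certain. Spread between mice, dissections and preparations cannot be told apart. A read of this size class spans 1 mature form, so CPM was not divided by hairpin length. In a whole gland, fewer cells of a type and less RNA per cell cannot be told apart.

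Both families made up a larger share of replicate 1. Together the 7 members had 86429 counts in replicate 1, which was 2.18% of its miRNA counts (2.17 to 2.20%). In replicate 2 they had 13848 counts, or 0.821% (0.807 to 0.835%). The miR-130/miR-301 family was the larger by far. It held 18943 CPM in replicate 1 and 6783 CPM in replicate 2, a mean of 12863 ± 8599 CPM (SD, n = 2). The miR-148/miR-152 family held 2873 CPM in replicate 1 and 1427 CPM in replicate 2, a mean of 2150 ± 1023 CPM (SD, n = 2). The lowest library of the first family lay above the highest library of the second.

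**Figure D1:**
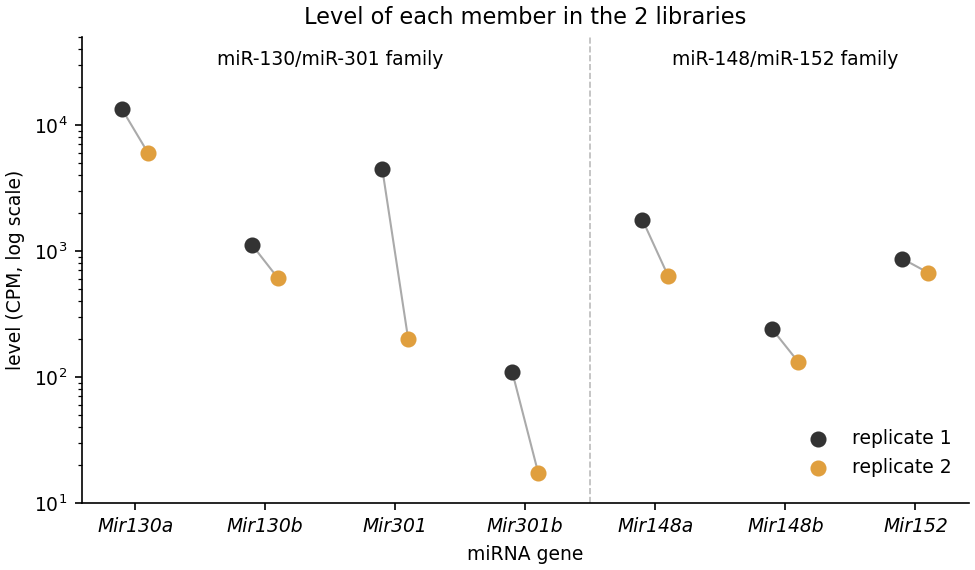
Level of each member in CPM on a log scale, with 1 point for each library and a line joining the 2 libraries of a gene. Mir130a is the highest member in both libraries, and each of the 7 members is higher in replicate 1, with the steepest line at Mir301.

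Mir130a was the most abundant member. It had 52439 counts in replicate 1 and 10060 in replicate 2, which were 13237 and 5964 CPM. This placed it at rank 21 of all miRNA genes in replicate 1 and at rank 36 in replicate 2. It was 2.22-fold higher in replicate 1 (2.17 to 2.27). Its range did not overlap that of any other member. Mir130b, its near-identical relative, was counted 4397 times in replicate 1 and 1018 times in replicate 2, and its levels there were 1110 and 604 CPM. It was 1.84-fold higher in replicate 1 (1.72 to 1.97). Mir130a stood at 11.9 times Mir130b in replicate 1 (11.6 to 12.3) and at 9.88 times in replicate 2 (9.26 to 10.6). The order of these 2 genes was the same in both libraries, and their proportion differed by little, although the intervals do not overlap.

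Mir301, the source of miR-301a, had the widest spread of the 7. It had 17778 counts in replicate 1 and 334 in replicate 2, which were 4488 and 198 CPM. The first value made it the second member after Mir130a, at rank 43 of all genes. The second value placed it below Mir130b, Mir148a and Mir152, at rank 171. The ratio was 22.7-fold toward replicate 1 (20.3 to 25.3). With 334 counts in its lower library, the difference was far beyond counting error, but it rests on 2 libraries.

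Mir301b had the lowest level of the 7. Its 433 counts in replicate 1 and 29 in replicate 2 were 109 and 17.2 CPM, a ratio of 6.36 toward replicate 1 (4.36 to 9.61). The interval is wide because the lower library gave 29 counts. Mir301 stood at 41.1 times Mir301b in replicate 1 (37.3 to 45.3) and at 11.5 times in replicate 2 (7.87 to 17.5). These intervals do not overlap, so the 2 miR-301 genes did not keep 1 proportion although both were higher in replicate 1.

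The make-up of the miR-130/miR-301 family therefore differed between the libraries. Mir130a gave 69.9% of the family's counts in replicate 1 (69.5 to 70.2%) and 87.9% in replicate 2 (87.3 to 88.5%). Mir301 gave 23.7% in replicate 1 (23.4 to 24.0%) and 2.92% in replicate 2 (2.62 to 3.24%). Mir130b gave 5.86% and 8.90%, and Mir301b gave 0.577% and 0.253%, in replicates 1 and 2. Without Mir301 the family stood at 14456 CPM in replicate 1 and 6585 CPM in replicate 2, and its ratio was 2.20 (2.15 to 2.24) in place of 2.79 (2.74 to 2.85).

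**Figure D2:**
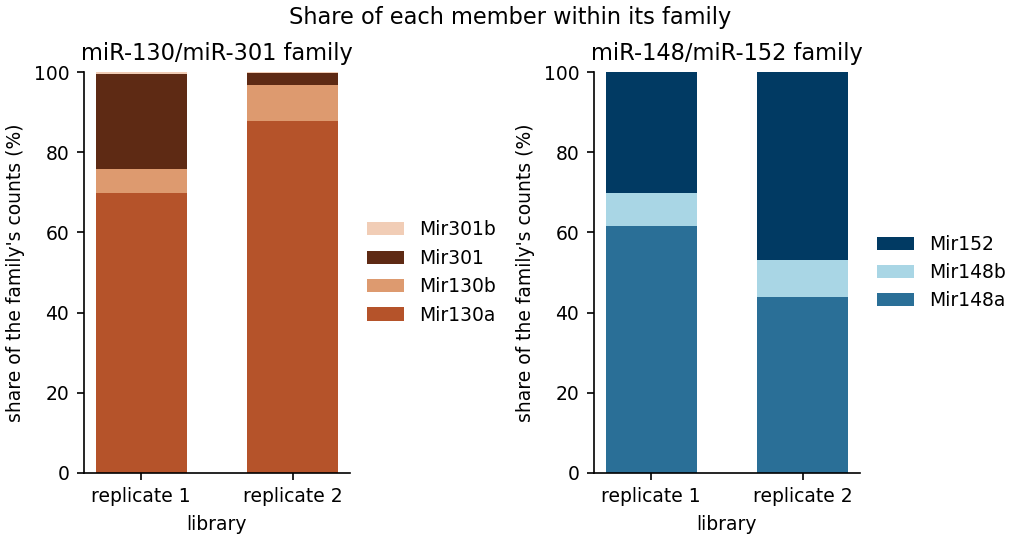
Share of each member in the summed counts of its family, in percent, with 1 bar for each library. Mir301 takes 23.7% of the miR-130/miR-301 counts in replicate 1 and 2.92% in replicate 2, and the miR-148/miR-152 family is led by Mir148a in replicate 1 with Mir152 next, while the 2 are close in replicate 2.

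In the miR-148/miR-152 family the leading member depended on the library. Mir148a was counted 7014 times in replicate 1 and 1058 times in replicate 2, giving 1770 and 627 CPM. It was 2.82-fold higher in replicate 1 (2.65 to 3.01). Mir152 was the steadiest of all 7, with 3426 and 1128 counts, or 865 CPM in replicate 1 and 669 CPM in replicate 2. Its ratio was 1.29 (1.21 to 1.38), and it held ranks 101 and 102 of all genes. Mir148a stood at 2.05 times Mir152 in replicate 1 (1.97 to 2.13). In replicate 2 it stood at 0.938 times Mir152, with an interval of 0.862 to 1.02 that takes in equal counts.

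Mir148b was the minor member of its family in both libraries. It was counted 942 times in replicate 1 and 221 times in replicate 2, giving 238 and 131 CPM and a ratio of 1.81 (1.57 to 2.11). Its share of the family was 8.28% in replicate 1 (7.78 to 8.80%) and 9.18% in replicate 2 (8.06 to 10.4%), and these intervals overlap. The shares of the other 2 moved against each other. Mir148a gave 61.6% and Mir152 30.1% in replicate 1, while Mir148a gave 44.0% and Mir152 46.9% in replicate 2. Mir148b and Mir152, which sit in the paralogous host genes Copz1 and Copz2, kept their order. Mir152 stood at 3.64 times Mir148b in replicate 1 (3.38 to 3.91) and at 5.10 times in replicate 2 (4.41 to 5.92), and these intervals do not overlap.

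By mean level the order of the members was Mir130a, Mir301, Mir148a, Mir130b, Mir152, Mir148b and Mir301b. Not all of these steps hold beyond the spread between libraries. The ranges of Mir301 and Mir148a overlapped, as did those of Mir130b and Mir152, and each of these orders was found in 1 library. The ranges of Mir148a and Mir130b also overlapped, although Mir148a was the higher in both libraries, with 627 CPM against 604 CPM in replicate 2. The steps from Mir130a to Mir301, from Mir152 to Mir148b and from Mir148b to Mir301b had no overlap and were found in both libraries.

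Ratios of replicate 1 over replicate 2 were then set beside those of all miRNA genes. On the log2 scale, after addition of 0.5 CPM, they were 4.50 for Mir301, 2.63 for Mir301b, 1.5 for Mir148a, 1.15 for Mir130a, 0.88 for Mir130b, 0.86 for Mir148b and 0.37 for Mir152. All 7 members were thus above 0, with a median of 1.15. For comparison, 404 genes reached 10 counts in 1 library or both. Of these, 54.2% were above 0, and the median was 0.05. The 5th and 95th percentiles were -1.44 and 1.68, so Mir301 and Mir301b lay outside this range and the other 5 members inside it.

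A ratio beyond 2-fold was found for 4 of the 7 members, all higher in replicate 1. These were Mir301, Mir301b, Mir148a and Mir130a. The background was 87 of 404 genes, or 21.5%, beyond 2-fold in either direction, and 48 genes, or 11.9%, in the direction of replicate 1. Since the families were picked with these values known, nothing is read from the excess. All 7 members passed the count minimum in both libraries. In order of the log2 ratio with 0.5 CPM added, among the 404 genes, Mir301 was at place 2, Mir301b at 10, Mir148a at 24, Mir130a at 41, Mir130b at 57, Mir148b at 58 and Mir152 at 136.

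**Figure D3:**
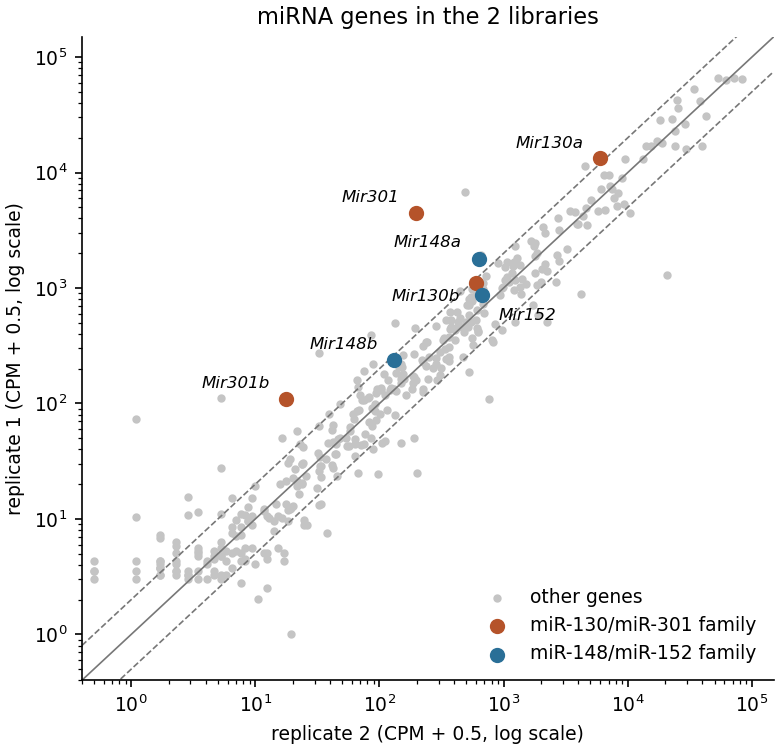
Level of the 404 miRNA genes that reached 10 counts in 1 library or both, replicate 1 against replicate 2, in CPM + 0.5 on log scales; the full line marks equal levels and the broken lines 2-fold. All 7 members lie above the line of equal levels, and Mir301 lies farthest from it among them, at 4488 CPM in replicate 1 and 198 CPM in replicate 2.

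**Figure D4:**
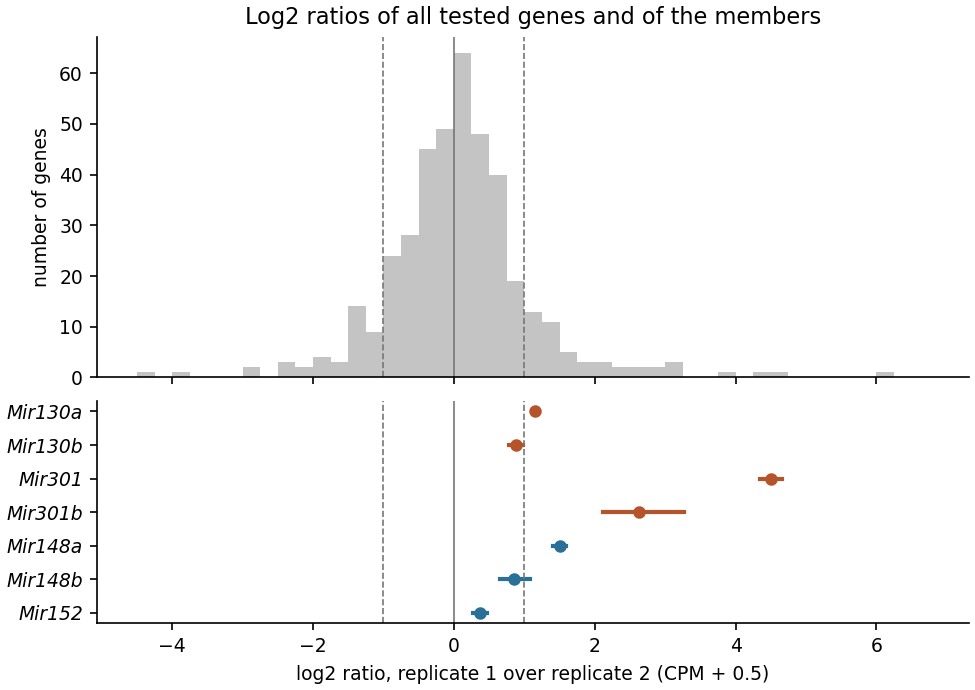
The upper panel gives the number of the 404 genes by log2 ratio of replicate 1 over replicate 2, with 0.5 CPM added. Points in the lower panel are the same log2 ratios of the members. Bars are the exact 95% intervals of the plain CPM ratios, on the log2 scale. The broken lines mark 2-fold. Mir301 at 4.50 and Mir301b at 2.63 lie in the far right tail, and Mir152 at 0.37 lies near the centre.

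By the log2 ratio with 0.5 CPM added, Mir215 alone stood above Mir301, at 6.06 against 4.50. It had 287 counts in replicate 1 and 1 count in replicate 2, and its plain CPM ratio of 122 had an interval of 21.8 to 4843, far wider than that of Mir301. By the plain ratio Mir153 was level with Mir301, at 23.1 (11.6 to 53.8) with 434 counts in replicate 1 and 8 in replicate 2, and 4 further genes with 10 to 15 counts in replicate 1 were at 0 in replicate 2. The genes whose levels in the 2 libraries were most like those of each member were found by distance in log2(CPM + 0.5) over the 2 libraries. Mir301 had no close companion. The nearest was Mir451a, a miRNA of red blood cells, at a distance of 1.44, with 6842 CPM in replicate 1 and 491 CPM in replicate 2. Next came Mir376c at 2.10 and its relative Mir148a at 2.14.

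Other members had close companions. Mir152 was nearest to Mir196b at a distance of 0.07, and Mir130b to Mir296 at 0.10. Mir148a was nearest to Mir376c at 0.15, with 1949 CPM in replicate 1 and 652 CPM in replicate 2. Mir148b was nearest to Mir1843a at 0.22 and Mir130a to Mir99b at 0.47. Mir301b, the member of lowest count, was nearest to Mir302b at 0.98. With 2 libraries these distances describe 2 values for each gene and nothing more.

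The pair Mir130b and Mir301b lies 257 bases apart in 1 intron, and its 2 genes did not keep 1 proportion. Mir130b stood at 10.2 times Mir301b in replicate 1 (9.20 to 11.2) and at 35.1 times in replicate 2 (24.3 to 52.7). Their log2 ratios of replicate 1 over replicate 2 were 0.88 for Mir130b and 2.63 for Mir301b, a difference of 1.76. As a comparison chosen after these values had been seen, the same difference was taken for all 128 pairs of neighbouring genes on the same strand within 10 kb, both members of a pair being among the 404 genes. The median difference was 0.48, and the difference of Mir130b and Mir301b was at place 9 of 128 from the largest. Among the 73 pairs whose lower gene had at least the 462 counts of Mir301b, the median was 0.37 and the pair was at place 4.

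**Figure D5:**
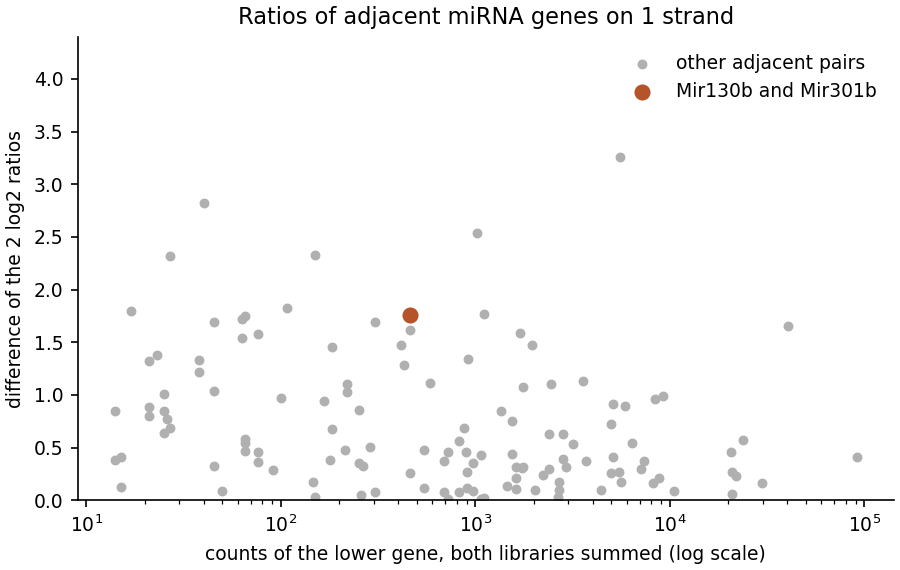
Difference between the log2 ratios of 2 neighbouring miRNA genes (absolute size) against the counts of the lower gene summed over both libraries, on a log scale, for 128 pairs. The pair of Mir130b and Mir301b, at 1.76, lies above most pairs of similar count.

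Of the genes in the RefSeq table with a mature form, 4 more carry the seed AGUGCAA, namely Mir6341, Mir721, Mir6389 and Mir130c, and none more carries CAGUGCA. They are shown because they bear the same seed as the abundant members.
miR-6341: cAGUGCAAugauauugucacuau
miR-721: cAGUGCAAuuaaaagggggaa
miR-6389: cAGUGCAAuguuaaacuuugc
miR-130c: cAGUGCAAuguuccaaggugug

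None of these 4 genes had a count in either library, on either strand. A count of 0 allows a level of up to 3 counts, or 0.757 CPM in replicate 1 and 1.78 CPM in replicate 2. Among the genes with this seed in the table, the counts thus came from the hairpins of Mir130a, Mir301 and Mir130b. Mir301b had no 3′-arm form in the table, so its seed was not compared. It had 433 counts in replicate 1 and 29 in replicate 2.

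Counts on the strand opposite to the members were few. Mir130a had 2 such counts in replicate 1 and 1 in replicate 2, and Mir148a had 0 and 2. The other 5 members had none in either library. The column for reads of either strand gave the members the sense counts plus these few, so no count of theirs was lost to a gene on the other strand.

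Markers of single cell types also differed between the libraries. All 3 erythroid markers were detected, with a summed level of 7248 CPM in replicate 1 and 595 CPM in replicate 2, the same direction as the members. Within that list Mir451a and Mir144 were higher in replicate 1 and Mir486 was not, with 12.4 CPM in replicate 1 and 19.6 CPM in replicate 2. Mir486 had few counts, 49 in replicate 1 and 33 in replicate 2. The interval of its ratio, 0.398 to 1.01, takes in equal levels. The hepatocyte marker Mir122 ran the other way, with 1299 CPM in replicate 1 and 20602 CPM in replicate 2. The 2 endothelial markers summed to 65225 CPM in replicate 1 and 83398 CPM in replicate 2. Nearly all of this was Mir126a, as Mir126b had 15 counts in replicate 1 and 12 in replicate 2. The 4 leukocyte markers summed to 858 CPM in replicate 1 and 1338 CPM in replicate 2. Of the leukocyte markers Mir142 and Mir223 were lower in replicate 1, Mir150 was close to level with 133 CPM in replicate 1 and 131 CPM in replicate 2, and Mir155 was higher in replicate 1, with 118 CPM against 69.4 CPM in replicate 2. Of the 3 pancreatic acinar markers none reached 10 counts in both libraries, and Mir216a and Mir216b were at 0 in replicate 1. Mir217 had 2 counts in replicate 1 and 32 in replicate 2, and the 3 summed to 0.505 CPM in replicate 1 and 20.7 CPM in replicate 2. The 4 endocrine markers were all detected and summed to 36299 CPM in replicate 1 and 46670 CPM in replicate 2. That direction is the one of Mir375, a miRNA of hormone-secreting cells, with 31129 CPM in replicate 1 and 42377 CPM in replicate 2. Mir7-2 (138 and 67.0 CPM) and Mir7b (4570 and 3754 CPM) were higher in replicate 1, and Mir7-1 was close to level (462 and 472 CPM). For markers too, reads that aligned to more than 1 place were outside the gene counts. Marker sequences were not compared with other hairpins, so a marker with like copies elsewhere can be undercounted here. The part of these cell types in the values of the members was not tested.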

How the data were processed

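Small RNA of under 30 nucleotides, per the labels, was sequenced from adrenal gland tissue in 2 libraries. The authors deposited 1 table of read counts per library, on build mm10 with annotation release M21 per the file lists deposited beside them; aligner, trimming and filters are not given in the sources used here. Each table has 3 count columns (either strand and each strand) and 4 summary rows. Of the single-strand columns, the one with the larger sum (the third column of the table) was taken as the sense strand. The summary rows were left out of totals and held 66.3% of the reads of replicate 1 and 74.3% of replicate 2.

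All 2202 identifiers matched GENCODE M21. CPM were taken over all sense-strand counts of a library. Shares have Clopper-Pearson intervals, and ratios have intervals from the binomial distribution conditional on their summed count. The log2 ratio used CPM + 0.5. With 1 group of 2 libraries no condition was tested and no p-value is given; "beyond 2-fold" is a rule of size. The ratio script was tested on simulated data. Named genes were the members, genes with a member's seed, the 3 nearest genes of each member (of which the text gives some), genes with a ratio at least as large, neighbouring and host genes, and markers. The members and lists were chosen with earlier results of these data known. Scaling alternatives used edgeR 4.0.16 and DESeq2 1.42.0 in R 4.3.3. Other work used Python 3.11.15 with scipy 1.17.1.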

Additional observations from a re-analysis of the deposited data

How the results depend on the processing

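The number of members beyond 2-fold was 4 under TMM and DESeq2 scaling, in the either-strand column, with at least 1 count in either library, with at least 10 counts in both and with 5 CPM added, and 6 at a limit of 1.5-fold; the exception there was Mir152. The background of 87 of 404 genes (21.5%) became 248 of 757 (32.8%) with at least 1 count in either library, 57 of 340 (16.8%) with at least 10 counts in both, 167 of 404 (41.3%) at 1.5-fold and 57 of 404 (14.1%) with 5 CPM added. Of the 57 genes among the 340, 22 were higher in replicate 1. The background was 94 of 404 genes (23.3%) both under TMM over all genes and under DESeq2 scaling. In the either-strand column it was 83 of 376 (22.1%). Under TMM over genes with at least 10 counts in both libraries it was 85 of 404. TMM over all genes, like DESeq2 scaling, raised log2 ratios by 0.107, and TMM over genes with at least 10 counts in both, chosen after the data had been seen, changed them by -0.022. No member's log2 ratio changed sign under these settings. Under TMM over all genes and under DESeq2 scaling, Mir130b stood at 0.99 and Mir148b at 0.96, just below the 2-fold limit. Mir152 stood at 0.48 there. The summed level of the miR-130/miR-301 family was 6783 to 18943 CPM with either library left out, and 10520 CPM without Mir301, an alternative also chosen afterwards. With 2 libraries, leaving out 1 cannot move a mean beyond its SD and says nothing about stability. No paired analysis was possible because the series holds 1 group. Depth limits Mir301b most, with 29 counts in replicate 2.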
